A study of Mus musculus with 36 samples.

Results

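The opioid receptors and the precursors of their peptide ligands were described across 3 brain regions of mice with and without nerve injury. The 8 genes were chosen by symbol, whatever their values: the 4 receptors Oprm1 (mu), Oprd1 (delta), Oprk1 (kappa) and Oprl1 (nociceptin), and the 4 precursors Penk (proenkephalin), Pdyn (prodynorphin), Pnoc (prepronociceptin) and Pomc (pro-opiomelanocortin). All 8 had a row among the 31554 genes of the deposited table. The 36 RNA-seq libraries came from adult male C57BL/6 mice with no transgene or mutation in the labels, 2.5 months after spared nerve injury (SNI) or sham surgery. In SNI some branches of the sciatic nerve are cut while another is spared, and the operated animals show a long-lasting neuropathic pain. The nucleus accumbens (NAc), the medial prefrontal cortex (PFC) and the periaqueductal grey (PAG) each had 6 SNI and 6 sham libraries, named here by the numbers in their labels. Libraries were made from pooled RNA, per the labels' protocols. The sources used here do not give the number of mice per library, nor say if 1 mouse gave several regions, so p-values reflect only how these libraries spread, and part of that spread may be technical.

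Opioid receptors are G protein-coupled receptors that act through inhibitory G proteins: they lower cyclic AMP, open inwardly rectifying potassium channels and close calcium channels, and so quieten the neurons that carry them. Their ligands are cut from large precursor proteins at pairs of basic residues. Enkephalins from Penk act mainly on delta and mu receptors, dynorphins from Pdyn on kappa receptors, beta-endorphin from Pomc on mu receptors, and nociceptin from Pnoc on the nociceptin receptor, which binds the classical opioid peptides poorly. In the striatum, Penk marks the D2 class of medium spiny neurons and Pdyn the D1 class, whereas the PAG is a midbrain centre through which opioids engage descending control of pain.

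The precursors carry their ligands in their own sequence. Classical opioid peptides begin with Tyr-Gly-Gly-Phe, followed by Met or Leu, and the in-frame codons of that motif were searched in the longest coding sequence of each gene in GENCODE M21, on its coding strand. The longest coding sequence of Penk, of 804 bases, held 7 copies, 6 followed by a methionine codon and 1 by a leucine codon. Pdyn, of 744 bases, held 3 copies, all followed by leucine, and Pomc, of 705 bases, held 1, followed by methionine. The motif occurred in 71 of 21584 coding sequences searched (0.329%), and Penk and Pdyn were among the 4 genes with 3 or more copies, the others being the keratin-associated genes Krtap19-2 and Krtap19-4. The stretches below show each copy in capitals, with the codons before it, each of them for lysine or arginine, and the codons after it in lower case. They are the sequences behind the enkephalin and dynorphin transcripts whose levels separate the regions.
Penk copy 1: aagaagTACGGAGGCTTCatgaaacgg
Penk copy 2: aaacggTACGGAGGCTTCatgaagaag
Penk copy 3: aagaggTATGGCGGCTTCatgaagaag
Penk copy 4: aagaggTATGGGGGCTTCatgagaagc
Penk copy 5: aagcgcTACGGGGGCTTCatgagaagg
Penk copy 6: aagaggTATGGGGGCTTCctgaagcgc
Penk copy 7: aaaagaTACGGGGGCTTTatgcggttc
Pdyn copy 1: aaacgcTATGGCGGCTTTttgcgcaaa
Pdyn copy 2: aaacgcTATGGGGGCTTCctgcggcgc
Pdyn copy 3: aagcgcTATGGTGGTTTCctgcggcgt
Pomc copy 1: aagcgtTACGGTGGCTTCatgacctcc

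Nociceptin begins with Phe-Gly-Gly-Phe instead, the change of the first residue that sets it apart from the classical peptides. Pnoc, whose longest coding sequence had 636 bases, held 1 in-frame copy of that motif. The motif occurred in 107 of 21584 coding sequences (0.496%). It is shown in capitals, again with its flanking codons.
Pnoc copy 1: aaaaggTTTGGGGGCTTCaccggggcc

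On the mouse build mm10 (GRCm38), GENCODE M21 places Oprm1 on the plus strand of chromosome 10 from 6758506 to 7038198, Oprd1 on the minus strand of chromosome 4 from 132110726 to 132144486, and Oprk1 on the plus strand of chromosome 1 from 5588466 to 5606131. Oprl1 lies on the plus strand of chromosome 2 from 181715016 to 181720985. Of the precursor genes, Penk lies on the minus strand of chromosome 4 from 4133531 to 4138819 and Pdyn on the minus strand of chromosome 2 from 129686565 to 129699844. Pnoc lies on the minus strand of chromosome 14 from 65400673 to 65425472, and Pomc on the plus strand of chromosome 12 from 3954951 to 3960642. Reads were assigned to whole genes, with deposited lengths between 1007 bases for Pomc and 8037 bases for Oprm1, so splice forms are not told apart. Exons of Oprm1 share 96 bases with Ipcef1 on the other strand, and those of Penk share 233 bases with the noncoding A830012C17Rik. The sources used here give no strand setting for the counting, so reads in those stretches cannot be assigned to either gene.

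Depth was 27.6 to 64.9 M (mega) assigned reads per library, and levels are in RPKM, reads per kilobase of gene per M assigned reads. The tissue labels were checked against marker genes, by the summed level of each list. The 7 medium spiny neuron markers summed to 549 to 793 RPKM in NAc libraries, to 44 to 80 RPKM in PFC libraries and to 25.7 to 29.7 RPKM in PAG libraries. The 7 cortical excitatory markers summed to 548 to 697 RPKM in PFC, and the 7 midbrain markers to 125 to 146 RPKM in PAG, against at most 6.05 in the other regions. Cortical excitatory markers also reached 208 RPKM in NAc, where they ranged down to 2.75. In bulk tissue, fewer cells of a type and less RNA per cell cannot be told apart.

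Each region had its own mix of opioid receptors. Oprl1, the nociceptin receptor, had the highest level of the 4 in all 36 libraries, and its highest levels were in PAG. Oprk1 was highest in NAc, Oprd1 was high in NAc and PFC and low in PAG, and Oprm1 was lowest in PFC. Differences between regions were tested in sham libraries with limma on log2(RPKM + 0.5), in 1 model of all libraries, and were called at a Benjamini-Hochberg adjusted p under 0.05 with a fold of at least 2. This rule called 6.85% of the 15639 genes tested for NAc against PFC, 13% for NAc against PAG and 15.1% for PFC against PAG, and 4, 6 and 6 of the 8 opioid genes. The 3 comparisons share sham groups with each other.

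**Figure D1:**
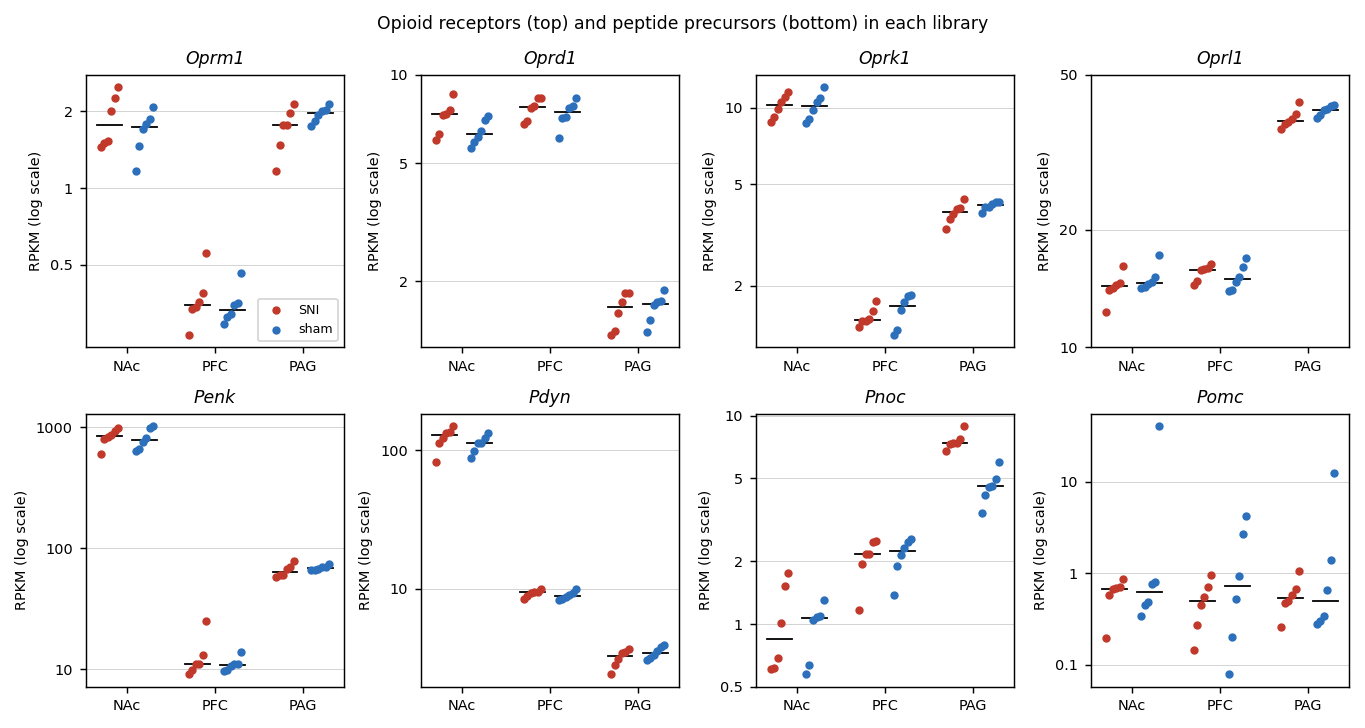
RPKM of each of the 8 genes in each library (log axis), by region, with SNI libraries in red left of sham libraries in blue and black lines at group medians (6 libraries each). The regions separate for most genes, SNI and sham overlap for all but Pnoc in PAG, and a few sham libraries stand far above the rest for Pomc.

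The mu receptor gene Oprm1, the main target of morphine, ranged from 1.17 to 2.49 RPKM in the 12 NAc libraries with a median of 1.74, from 0.265 to 0.556 in PFC with a median of 0.343, and from 1.16 to 2.14 in PAG with a median of 1.88. NAc and PAG overlapped, and every PFC library lay below every library of the other regions. NAc was 2.54-fold higher than PFC on the log2(RPKM + 0.5) scale (log2 difference 1.35, SE 0.11, adjusted p = 8.66e-13 by limma), and PFC differed from PAG by -1.53 (SE 0.11, adjusted p = 1.32e-14). The pseudocount of 0.5 RPKM understates both, since the PFC median of this gene lay under it. PFC held 108 to 224 reads of the gene per library. NAc and PAG did not pass the test (-0.18, 95% interval -0.4 to 0.04, adjusted p = 0.133).

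The delta receptor gene Oprd1 ranged from 5.64 to 8.57 RPKM in NAc with a median of 6.73, from 6.1 to 8.33 in PFC with a median of 7.71, and from 1.31 to 1.87 in PAG with a median of 1.68. NAc and PFC overlapped and both lay wholly above PAG. The level was 3.25-fold higher in NAc than in PAG (log2 difference 1.7, SE 0.08, adjusted p = 3.7e-19 by limma) and 3.7-fold higher in PFC than in PAG (1.89, SE 0.08, adjusted p = 1.62e-20).

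The kappa receptor gene Oprk1, whose product binds dynorphin, ranged from 8.67 to 12 RPKM in NAc with a median of 10.2, from 1.28 to 1.83 in PFC with a median of 1.54, and from 3.34 to 4.36 in PAG with a median of 4.05. No 2 regions overlapped, and the order was NAc, PAG, PFC. NAc was 5.07-fold higher than PFC (log2 difference 2.34, SE 0.08, adjusted p = 9.74e-24 by limma) and 2.29-fold higher than PAG (1.2, SE 0.08, adjusted p = 5.37e-16).

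Oprl1 ranged from 12.3 to 17.3 RPKM in NAc with a median of 14.5, from 13.9 to 17 in PFC with a median of 15.5, and from 36.3 to 42.5 in PAG with a median of 39.5. NAc and PFC overlapped, and every PAG library lay above both. NAc differed from PAG by -1.4 on the log2 scale (SE 0.05, adjusted p = 4.42e-22 by limma) and PFC from PAG by -1.39 (SE 0.05, adjusted p = 4.82e-22), whereas the difference between NAc and PFC lay between -0.12 and 0.1 (95% interval). Oprl1 was also the steadiest of the 8 genes in PAG, with a coefficient of variation of 4.89% over 12 libraries.

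Within a library, the order of the receptors by RPKM was Oprl1, Oprk1, Oprd1, Oprm1 in NAc and Oprl1, Oprd1, Oprk1, Oprm1 in PFC, with no overlap between neighbours in either order. In PAG the order was Oprl1, Oprk1, Oprm1, Oprd1, and Oprm1 and Oprd1 overlapped, Oprm1 being higher in 9 of 12 libraries. The median ratio of Oprl1 to Oprm1 was 8.59 in NAc, 46.2 in PFC and 21 in PAG.

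Penk and Pdyn, the precursors of enkephalins and dynorphins, were by far highest in NAc. Penk ranged from 603 to 1020 RPKM in NAc with a median of 819, from 9.03 to 25.1 in PFC with a median of 10.9, and from 58.1 to 77.8 in PAG with a median of 67.1. No 2 regions overlapped. Between sham groups, NAc was 70.4-fold higher than PFC (log2 difference 6.14, SE 0.15, adjusted p = 1.38e-26 by limma) and 11.6-fold higher than PAG (3.53, SE 0.15, adjusted p = 2.57e-20), and PFC differed from PAG by -2.6 (SE 0.15, adjusted p = 1.13e-16).

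Pdyn ranged from 82.5 to 148 RPKM in NAc with a median of 118, from 8.35 to 9.92 in PFC with a median of 9.16, and from 2.41 to 3.95 in PAG with a median of 3.39. No 2 regions overlapped here either, but the lowest region was PAG and not PFC as for Penk. NAc was 11.7-fold higher than PFC (log2 difference 3.55, SE 0.1, adjusted p = 8.52e-25 by limma) and 27.9-fold higher than PAG (4.8, SE 0.1, adjusted p = 3.61e-29), and PFC was 2.39-fold higher than PAG (1.25, SE 0.1, adjusted p = 6.17e-13). The ratio of Penk to Pdyn therefore had a median of 7.2 in NAc, 1.18 in PFC and 21.1 in PAG, and its range over libraries was 6.12 to 8.37, 0.988 to 2.66 and 17.4 to 24.1 in that order.

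Pnoc had the opposite order. It ranged from 0.576 to 1.77 RPKM in NAc with a median of 1.03, from 1.17 to 2.54 in PFC with a median of 2.18, and from 3.4 to 8.89 in PAG with a median of 6.36. NAc and PFC overlapped, and every PAG library lay above both. NAc differed from PAG by -1.82 on the log2 scale (SE 0.17, adjusted p = 9.06e-12 by limma). NAc against PFC (-0.86, adjusted p = 3.71e-05) and PFC against PAG (-0.96, adjusted p = 4.1e-06) passed the adjusted threshold and stayed under a fold of 2. Pnoc and the receptor of its product, Oprl1, thus both had their highest levels in PAG.

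Pomc, which in the brain is made mainly in the arcuate hypothalamus and the nucleus of the solitary tract, had a median of 0.676 RPKM over NAc libraries, with 0.533 for PFC and 0.538 for PAG libraries, and no difference between regions passed the test (adjusted p = 0.603 to 0.873 by limma). Among the precursors Penk and Pdyn led in NAc and PFC, and in PFC they overlapped, with Penk higher in 11 of 12 libraries. In PAG, Penk was followed by Pnoc, which was higher than Pdyn in 12 of 12 libraries.

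Genes with the most similar pattern over all 36 libraries were named by Pearson's r of the log2 levels, as a description. The points share regions, so r mostly repeats the order of the 3 regions, and 246 to 1626 of 15638 genes reached 0.9 for each opioid gene except Pomc, for which none did. Oprk1 was most like Tac1, the precursor of substance P (r = 0.99), followed by Nexn and Nt5e. Pdyn was most like the striatal kinase gene Dclk3 and the G protein subunit gene Gng7 (r = 1 for both, rounded), and Penk was most like Sertad4, Arhgap6 and Clip4 (r = 0.99). The 3 nearest genes were Nap1l5, Impact and Pkd2l2 for Oprl1 (r = 0.99), Ankrd33b, Fam212b and Prkcb for Oprd1 (0.99), Peg10, Abat and N4bp2 for Oprm1 (0.98), and Ctif, Shroom3 and Rab11fip5 for Pnoc (0.97 to 0.98). For Pomc, Usb1 and Gh, the growth hormone gene, were among the nearest, at r = 0.4 and 0.39.

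With each library set against its own group mean, the regional order drops out and what is left is the variation between libraries of 1 group. Penk then varied most closely with Sh3rf2 and Cd4 (r = 0.85 to 0.86 over 36 libraries), and Pdyn with Dclk3, Map2k1 and Prok2 (0.76 to 0.77). Penk and Pdyn themselves had r = 0.53 (Spearman's rho 0.59), the highest of the 28 pairs of opioid genes, and Oprk1 and Pnoc the lowest, at -0.51 (rho -0.48). The nearest genes were Myl6b, Zfp423 and Efhd2 for Pnoc (r = 0.81 to 0.87), Resp18, Impact and Hars for Oprl1 (0.81 to 0.82), and C2cd3, Ago2 and Helz for Oprm1 (0.79 to 0.84). They were Entpd3, Ndrg4 and Atp2b2 for Oprd1 (0.69 to 0.74), Slmap, Wdr17 and Usp28 for Oprk1 (0.71 to 0.74), and Mfhas1, Klf4 and Sfrp4 for Pomc (0.48 to 0.54). These libraries share depth and GC differences, and no p is given.

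In NAc, the libraries with the lowest Penk and Pdyn also held cortical transcripts. Slc17a7, which loads glutamate into vesicles in cortical neurons, was 178 RPKM in SNI library 7, where Penk was 603 and Pdyn 82.5, the lowest of the 12 libraries for both. In sham libraries 6 and 2, Slc17a7 was 139 and 97.8, Penk was 642 and 662 and Pdyn was 98.2 and 86.9. Sham library 4 and SNI library 10 had Slc17a7 at 113 and 101, yet Penk at 813 and 802 and Pdyn at 113 and 112, so the order of the libraries was not the same throughout. In sham library 5, with Slc17a7 at 1.59, Penk was 1020, and in SNI library 12, with Slc17a7 at 2.53, Pdyn was 148, the highest value of each. The 7 cortical markers together summed to 3.96 to 208 RPKM in SNI and 2.75 to 159 in sham libraries of NAc, so both groups spanned the range. Their part in the comparison of SNI with sham was not tested.

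**Figure D2:**
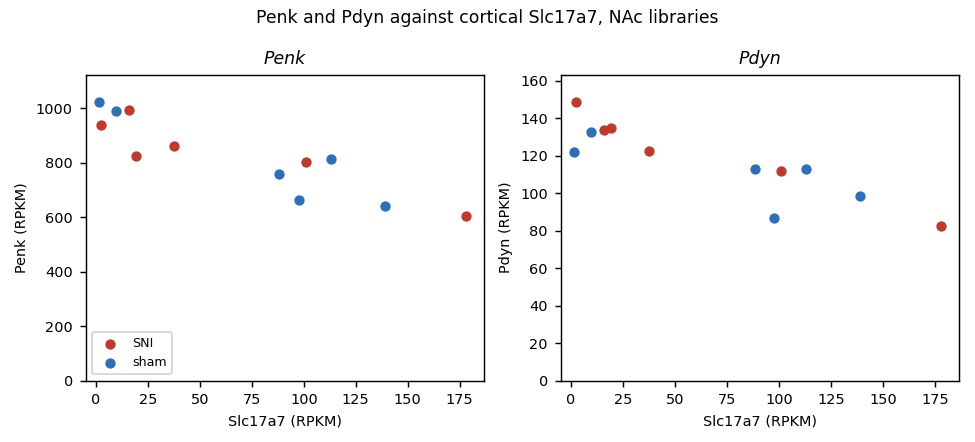
Penk (left) and Pdyn (right) in RPKM against Slc17a7 in RPKM in the 12 NAc libraries, SNI in red and sham in blue. The library with the most Slc17a7, SNI library 7 at 178 RPKM, has the least of both precursors, 603 RPKM of Penk and 82.5 RPKM of Pdyn.

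SNI was compared with sham within each region, to see whether lasting nerve injury went with a change in the opioid system. By limma on log2(RPKM + 0.5) with Benjamini-Hochberg adjustment at 0.05, over genes averaging 0.5 RPKM or more, the comparison called 0% of 15264 genes in NAc and 0% of 15192 in PFC. At an unadjusted p under 0.05 there were 660 genes in NAc and 220 in PFC, and voom on the recovered reads also called 0 in both. In PAG it called 35.2% of 15592 genes, 3360 higher and 2135 lower in SNI. Of the opioid genes, 0 of 8 passed in NAc, 0 of 7 in PFC, where Oprm1 was under the filter, and 1 of 8 in PAG. That gene was Pnoc.

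**Figure D3:**
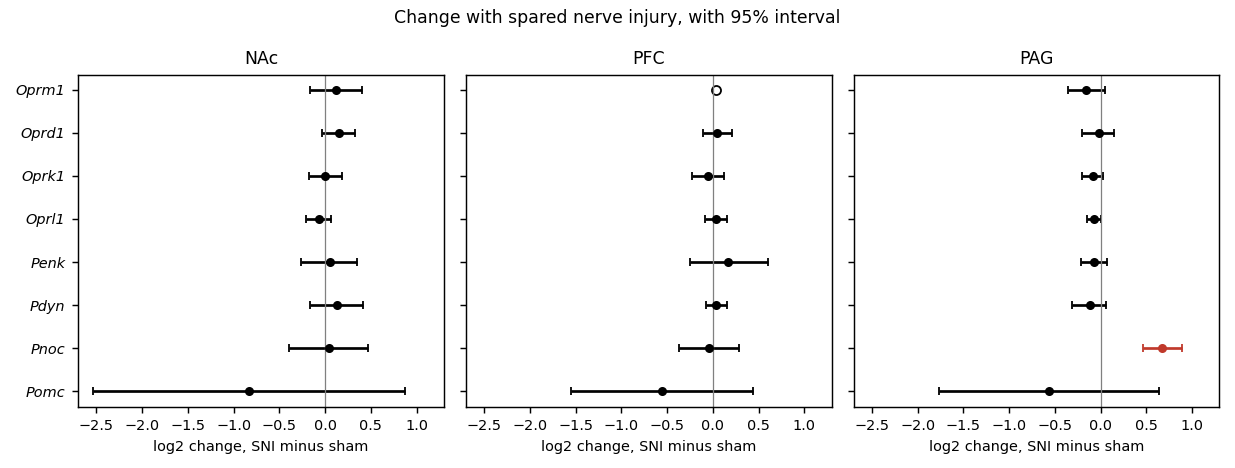
Log2 change of each opioid gene, SNI minus sham, on the log2(RPKM + 0.5) scale, with 95% intervals from limma, in NAc, PFC and PAG (6 SNI and 6 sham libraries each). Pnoc in PAG, in red, is at 0.67 with an interval of 0.46 to 0.89; all other intervals include 0, those of Pomc are the widest, and the open circle is Oprm1 in PFC, which was under the filter and has no interval.

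In NAc, Oprd1 was 5.98 to 8.57 RPKM in SNI libraries with a median of 7.35, against 5.64 to 7.21 in sham libraries with a median of 6.31. The groups overlapped and the difference did not pass the test (log2 change 0.15, 95% interval -0.03 to 0.33, adjusted p = 0.78 by limma). Penk was 603 to 991 RPKM in SNI with a median of 844, against 642 to 1020 in sham with a median of 786, and Pdyn was 82.5 to 148 RPKM in SNI with a median of 128, against 86.9 to 133 in sham with a median of 113. Both overlapped nearly throughout. The intervals of the fold were 0.836 to 1.27 for Penk, 0.892 to 1.34 for Pdyn, 0.892 to 1.32 for Oprm1, 0.882 to 1.14 for Oprk1, 0.866 to 1.05 for Oprl1 and 0.761 to 1.39 for Pnoc.

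In PFC, Penk was 9.03 to 25.1 RPKM in SNI libraries with a median of 11, against 9.62 to 13.7 in sham libraries with a median of 10.7. The high end was SNI library 24 alone, and the groups otherwise overlapped (log2 change 0.17, 95% interval -0.25 to 0.6, adjusted p = 1 by limma; -0.03 without that library). SNI library 24 also had the highest striatal marker levels of PFC: Adora2a, the adenosine receptor of the D2 class of medium spiny neurons, was 4.31 RPKM there and at most 1.02 in the other PFC libraries, and Drd2 was 6.65 against at most 1.98. The 4 D2-class markers summed to 1.88 to 13.3 RPKM in SNI and 1.99 to 3.43 in sham libraries of PFC, with library 24 at the top. Its Oprm1, 0.556 RPKM, was the highest in PFC too. Pdyn and Oprk1, also higher in NAc than in PFC, were not raised in library 24. Pdyn was 9.43 RPKM there, within the PFC range of 8.35 to 9.92, and Oprk1 was 1.59, within 1.28 to 1.83. The part of striatal RNA in these values was not tested.

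For most other genes of PFC the intervals of the fold were narrower than for Penk. For Oprd1 the fold lay between 0.927 and 1.16, for Oprk1 between 0.854 and 1.09, for Oprl1 between 0.945 and 1.11, for Pdyn between 0.952 and 1.12 and for Pnoc between 0.776 and 1.22 (95% intervals). That of Pomc, between 0.341 and 1.35, was the widest in PFC. Oprm1, under the filter, averaged 0.374 ± 0.098 RPKM in SNI and 0.348 ± 0.0616 RPKM in sham libraries (SD, n = 6 each; two-sided exact permutation p = 0.626 over 924 assignments).

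In PAG, Pnoc was higher in SNI. The SNI libraries had 6.73, 7.3, 7.36, 7.41, 7.74 and 8.89 RPKM, and the sham libraries had 3.4, 4.15, 4.54, 4.61, 4.96 and 5.99 RPKM. Every SNI library lay above every sham library. The means were 7.57 ± 0.724 RPKM in SNI and 4.61 ± 0.859 in sham (SD, n = 6 each), and on the log2(RPKM + 0.5) scale the fold was 1.59 with a 95% interval of 1.38 to 1.85 (log2 change 0.67, SE 0.1, adjusted p = 0.000221 by limma). The exact permutation p, two-sided, was 0.00216, the smallest that 924 assignments allow. Read counts were 461 to 615 per library in SNI and 274 to 463 in sham. The same lack of overlap with SNI above held for 13.3% of the genes tested in PAG, and 21.5% were called higher.

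The 7 other opioid genes of PAG did not pass the test. Oprl1 was 36.3 to 42.5 RPKM in SNI with a median of 38.1, against 38.6 to 41.9 in sham with a median of 40.7. The groups overlapped, with 5 of 6 SNI libraries under the sham median, and the fold lay between 0.903 and 1.01 (95% interval, adjusted p = 0.185 by limma). Oprk1 was 3.34 to 4.36 RPKM in SNI with a median of 3.91, against 3.85 to 4.27 in sham with a median of 4.13 (fold 0.872 to 1.02, adjusted p = 0.237). For Oprm1 the interval of the fold was 0.777 to 1.03, for Oprd1 0.873 to 1.11, for Penk 0.864 to 1.05 and for Pdyn 0.806 to 1.05. Penk itself was 58.1 to 77.8 RPKM in SNI with a median of 63.8, against 65.7 to 74.3 in sham with a median of 68.3, overlapping.

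The difference of the Pnoc change between regions was tested in the model of all libraries. The SNI effect in PAG minus that in NAc was 0.63 (SE 0.23, adjusted p = 0.525 by limma), and in PAG minus PFC 0.71 (SE 0.23, adjusted p = 0.215). Neither passed, and the interaction tests called 0% of 15639 genes in each pair of regions, so the change in PAG is not shown to differ from that in NAc or PFC. In NAc, Pnoc was 0.609 to 1.77 RPKM in SNI with a median of 0.849, against 0.576 to 1.31 in sham with a median of 1.06. In PFC it was 1.17 to 2.49 RPKM in SNI with a median of 2.18, against 1.38 to 2.54 in sham with a median of 2.23. The groups overlapped in both regions.

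The Pnoc values went with a property of the libraries. The GC slope of a library is the slope of its log2 levels, relative to the mean of its region, on the GC content of the transcripts, in log2 units per 10% GC; where it is high, GC-rich genes read higher. The longest transcripts have 40.7% GC for Oprk1, 47.9% for Oprm1, 50.3% for Oprl1 and 51.8% for Pnoc. Those of Pdyn, Penk, Oprd1 and Pomc have 51.9%, 52.7%, 54.9% and 59.2%. In PAG the slopes were 0.036 to 0.218 in SNI and -0.217 to -0.025 in sham libraries, with no overlap, so GC slope and surgery cannot be told apart there. The highest Pnoc value of PAG, 8.89 RPKM, was in SNI library 36, which had the highest slope, and the lowest, 3.4 RPKM, in sham library 28, which had the lowest.

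In PFC, where the slopes of both groups overlapped (-0.241 to 0.124 in SNI and -0.262 to 0.117 in sham), Pnoc rose with the slope over the 12 libraries. Pearson's r was 0.91 (permutation p = 0.00029, adjusted p = 0.00928 over 32 relations) and Spearman's rho 0.72 (permutation p = 0.0108, adjusted p = 0.173). The lowest Pnoc values, 1.17 RPKM in SNI library 19 and 1.38 in sham library 13, were in the libraries with the lowest slopes; without these 2, r was 0.71. In NAc r was 0.2 (permutation p = 0.529, adjusted p = 0.725). Within the SNI libraries of PAG r was 0.63 (exact permutation p = 0.167, n = 6) and within the sham libraries 0.94 (exact permutation p = 0.0528, n = 6), but without the 2 libraries of extreme slope r was -0.89 in SNI and -0.71 in sham, so both rest on those libraries. Of the 32 relations, 8 genes by 4 sets of libraries, only that of Pnoc in PFC passed adjustment of r. With each library set against its group mean, r was 0.92 for Pnoc in PFC, where 92.4% of all genes had a lower r. In PAG, over 12 libraries with those of extreme slope included, it was 0.8, and 94.1% had a lower r. Most genes thus had a lower r than Pnoc, but the relation was not particular to it, since the remaining genes had an r at least as high.

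**Figure D4:**
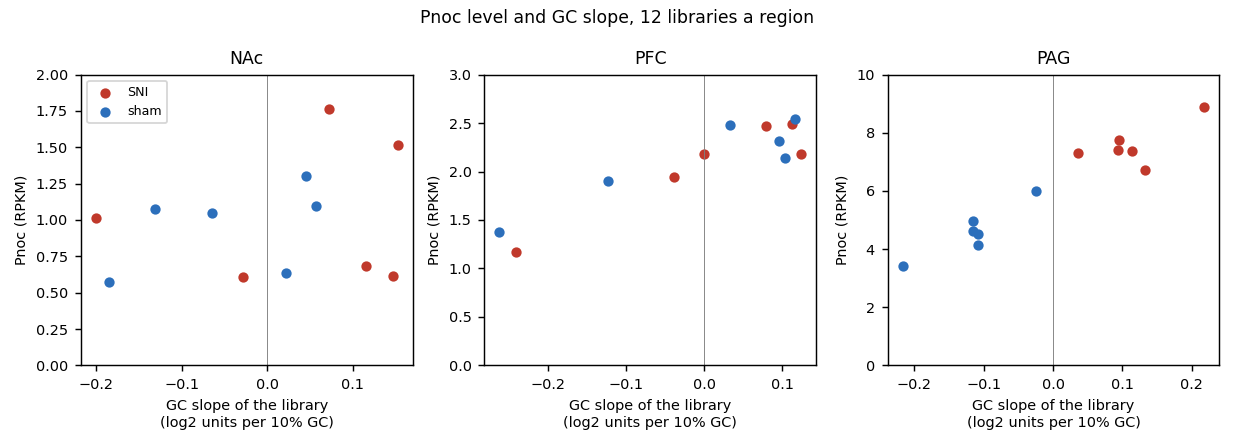
Pnoc in RPKM against the GC slope of the library (log2 units per 10% GC) in NAc, PFC and PAG, with SNI in red and sham in blue (6 each). In PAG all SNI libraries lie at slopes above 0 and all sham libraries below 0, and in PFC the 2 libraries with slopes under -0.2 hold the lowest Pnoc values, 1.17 and 1.38 RPKM.

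With the GC slope as a covariate, the Pnoc change in PAG was 0.09 (SE 0.15, adjusted p = 0.876 by limma) and 0 genes of PAG were called. With the slope removed gene by gene, by coefficients estimated in the other 2 regions, it was 0.37 (SE 0.07, adjusted p = 0.066 by limma) and 20 genes were called. That fit takes the coefficients as known, so its SE and p leave out their error. Single markers of several cell types were called as well, in a region where 21.5% of all genes tested were called higher and 13.7% lower. Of the 5 microglial markers, which summed to 53.1 to 61.2 RPKM in SNI and 44.8 to 50.2 in sham libraries of PAG, Tmem119 (log2 change 0.59) and C1qa (0.79) were called higher, whereas Csf1r (0.11), P2ry12 (-0.12) and Cx3cr1 (-0.02) did not pass. Of the 6 oligodendrocyte markers, Mbp (0.6), Mag (0.39) and Myrf (0.4) were higher, and the list summed to 1130 to 1560 RPKM in SNI and 1060 to 1240 in sham libraries. Of the 5 astrocyte markers, Aldh1l1 (0.2) and Gfap (0.22) were higher and Aqp4 (-0.17) lower. Cldn5 (0.45) was higher among 4 endothelial markers, and Col1a1 (0.24) and Col1a2 (0.32) among 5 of fibroblasts and meninges. Of the neuronal lists, 3 of 7 midbrain markers were higher, Gata3 (0.35), Gata2 (0.37) and Sox14 (0.38), with sums of 125 to 146 RPKM in SNI and 132 to 146 in sham libraries. Of the 7 interneuron markers tested, Slc32a1 (0.56) and Sst (0.43) were higher and Gad2 (-0.16) lower, with sums of 313 to 374 RPKM in SNI and 315 to 364 in sham libraries. The cholinergic markers Chat and Slc5a7 summed to 1.23 to 15.6 RPKM in SNI and 8.79 to 26.2 in sham libraries. Slc5a7 was called lower (-1.36, adjusted p = 0.0245 by limma) and Chat did not pass (-0.93, adjusted p = 0.054). The 4 serotonin neuron markers, of which none passed, summed to 80.8 to 237 RPKM in SNI and 179 to 278 in sham libraries. Their part in the Pnoc difference was not tested.

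Pomc was set by a few sham libraries. In NAc it was 0.199 to 0.859 RPKM in SNI with a median of 0.676, against 0.339 to 40.4 in sham with a median of 0.631. In PFC it was 0.146 to 0.96 RPKM in SNI with a median of 0.501, against 0.0789 to 4.19 in sham with a median of 0.731, and in PAG it was 0.258 to 1.06 RPKM in SNI with a median of 0.538, against 0.281 to 12.5 in sham with a median of 0.502. The groups overlapped in each region and the tests did not pass (by limma, log2 change -0.83 with adjusted p = 0.782 in NAc, -0.56 with adjusted p = 1 in PFC, and -0.56 with adjusted p = 0.459 in PAG). Without NAc sham library 3 the change in NAc was 0.05, and without PAG sham library 26 that in PAG was 0.05.

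The high libraries were NAc sham 3 at 40.4 RPKM (2027 reads), PAG sham 26 at 12.5 (431 reads), and PFC sham 15 and 16 at 4.19 and 2.7 RPKM. Pomc is a major product of the pituitary, whose other hormone genes were read beside it. Gh, the growth hormone gene, was 10 RPKM in NAc sham 3, 3.69 in PAG sham 26, 3.48 in PFC sham 15 and 33 in PFC sham 16. The highest Gh of all libraries, 71.7 RPKM, was in NAc sham 1, where Pomc was 0.489. The 6 pituitary markers summed to 0.534 to 3.91 RPKM in SNI and 0.592 to 106 in sham libraries of NAc, to 0.893 to 3.71 and 0.477 to 39.7 in PFC, and to 2.88 to 14.5 and 1.3 to 7.28 in PAG. Tbx19, a transcription factor of the Pomc-producing pituitary cells, was looked at after the values were seen. It had its 2 highest levels in NAc sham 3 (0.0629 RPKM) and PAG sham 26 (0.0548 RPKM), but these are only 10 and 6 reads. NAc SNI 7 had 7 reads of Tbx19 (0.0338 RPKM) with Pomc at 0.199 RPKM. Pax7, looked at with it, was 0.0514 RPKM (15 reads) in NAc sham 3. In PAG it was 1.67 RPKM in sham 26 and 1.87 RPKM in SNI 36. The 5 arcuate markers summed to 2.24 to 3.29 RPKM in sham libraries of NAc, with NAc sham 3 the lowest at 2.24. They summed to 3.13 RPKM in PAG sham 26, where sham libraries had 2.35 to 3.29. In PFC sham 15 and 16 they summed to 1.78 and 1.94 RPKM, where sham libraries had 1.33 to 2.83. The part of pituitary or arcuate RNA in the Pomc values was not tested.

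**Figure D5:**
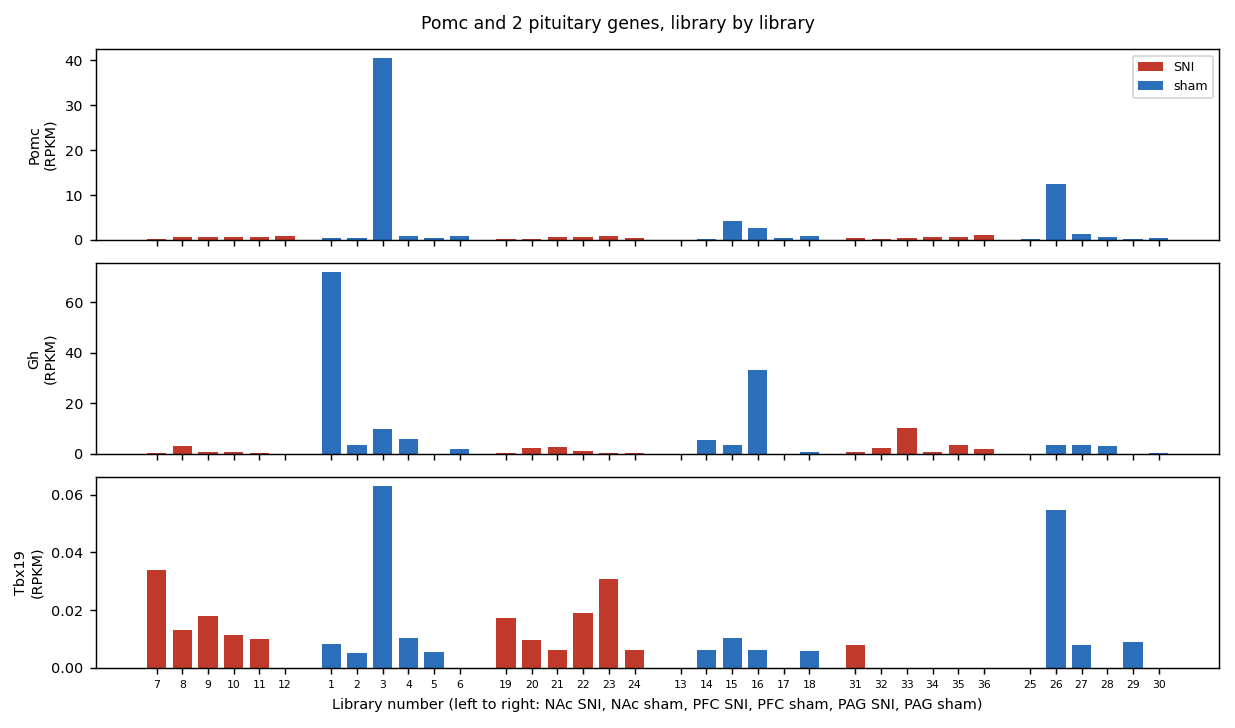
Pomc, Gh and Tbx19 in RPKM in each library, SNI in red and sham in blue, with SNI libraries left of sham libraries within each region. NAc sham 3 and PAG sham 26 have the highest Pomc, 40.4 and 12.5 RPKM, and the highest Tbx19, of only 10 and 6 reads. Gh is highest in NAc sham 1 at 71.7 RPKM.

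The genes that act around the receptors and peptides were followed in 8 lists of 68 genes. In NAc and PFC, 0 of 68 and 0 of 67 tested genes were called, like 0% of all genes. In PAG, 18 of 68 were higher and 12 lower in SNI, where 21.5% of all genes tested were called higher and 13.7% lower, and the median log2 change was 0, against -0.0192 over all genes tested. This share, like that of all genes called in PAG, stands where the GC slopes of the groups do not overlap, and with the slope as a covariate 0 genes of PAG were called.

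Among the inhibitory G protein alpha subunits and the beta and gamma subunits, listed together, 5 of 12 were higher and 2 lower in PAG. The shares of all genes were 21.5% and 13.7%. Gnb2, a beta subunit, averaged 30.6 ± 2.12 RPKM in SNI and 20.1 ± 2.97 RPKM in sham libraries (SD, n = 6 each; log2 change 0.6, adjusted p = 0.000179 by limma), and Gnb5, Gnaz and Gnai2 changed by 0.24, 0.28 and 0.23. Of the receptor kinases and arrestins, which end signalling, 3 of 7 were higher and 0 lower, against the same shares of all genes: Grk6 by 0.27, Adrbk1 (also called Grk2) by 0.2 and Arrb2 by 0.18. Of the adenylyl cyclases, some of which the receptors inhibit, 4 of 8 were higher, led by Adcy6 (0.34) and Adcy5 (0.22). The 4 also included Adcy3 (0.14), and 1 of the 8 was lower, Adcy2 (-0.13). Of the RGS proteins, which speed the shut-off of G proteins, Rgs14 was higher (0.38) and Rgs7 (-0.24), Rgs17 (-0.12) and Rgs4 (-0.18) were lower, of 10. None of the 4 inwardly rectifying channel genes passed in PAG, the smallest adjusted p being 0.0707 for Kcnj9.

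Of the 8 genes that process prohormones, 2 were higher and 3 lower in PAG, beside 21.5% higher and 13.7% lower among all genes. Pcsk1n, which encodes an inhibitor of the convertase PC1, averaged 7.45 ± 4.63 RPKM in SNI and 2.12 ± 0.405 RPKM in sham libraries (SD, n = 6 each; log2 change 1.47, adjusted p = 0.000425 by limma), and the convertase gene Furin changed by 0.48. Pcsk1, the convertase PC1 itself, averaged 15.2 ± 2.51 RPKM in SNI and 18.9 ± 1.24 RPKM in sham libraries (-0.32, adjusted p = 0.0166), and the amidating enzyme gene Pam changed by -0.21. Of the 9 genes that break down or scavenge opioid peptides, Dpp3 was higher (0.19), and Lnpep (-0.25) and Mme, the enkephalin-degrading neprilysin (-0.15), were lower. Of the 10 transcription factors linked to precursor genes, Jund (0.27) and Junb (0.55) were higher and Atf2 (-0.12) was lower.

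In NAc the transcription factor gene of smallest p was Fos, an immediate early gene, at 3.45 ± 1.47 RPKM in SNI and 5.27 ± 1.24 RPKM in sham libraries (SD, n = 6 each; log2 change -0.61, adjusted p = 0.78 by limma). In the other lists of NAc the genes of smallest p were Gnaz, Kcnj9, Rgs7, Adcy3, Ackr3, Pam and Adrbk2, with log2 changes between -0.23 and 0.15. In PFC they were Nr4a1 (-0.4, adjusted p = 1), Gng7, Kcnj9, Rgs19, Adcy8, Ackr3, Pcsk2 and Arrb2, with changes between -0.08 and 0.12 apart from Nr4a1.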

How the data were processed

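The authors deposited 1 table of RPKM values for 36 libraries, together with gene lengths. TopHat2, HTSeq and build mm10 are named, without roles or versions, per the submitters' processing notes. When RPKM was turned back into reads through gene length and library depth, 100% of the values came out whole within 0.001, which gave the depths.

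RPKM is not a count, so tests used limma 3.58.1 under R 4.3.3, with a mean-variance trend, on log2(RPKM + 0.5), over genes averaging 0.5 RPKM or more, two-sided, with Benjamini-Hochberg adjustment over all genes tested. This scale understates fold changes of low genes. SNI was compared with sham in the 12 libraries of a region, and regions and interactions in 1 model of all 36 libraries. Single values were also tested by exact permutation over 924 assignments, and correlations by permutation (100000 resamples, or all orders for n = 6). In each of 90 within-group pairs, the reads differed by more than sampling noise (chi-square at least 3.89 for each degree of freedom). The fits were tested on simulated reads with known changes. Those reads had no GC slopes and no mixture of tissues, so the test does not cover these features of the libraries.

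Coordinates, GC content (97.9% of gene identifiers) and coding sequences came from GENCODE M21. Named genes were the 8 opioid genes; per list and region, up to 4 genes past the threshold by smallest p, otherwise the 1 of smallest p; and the 3 genes most like each opioid gene, some of which are not reported here. The genes and lists were chosen with earlier results of these data known. Alternatives covered pseudocount, filter, scaling, array weights, voom on recovered reads, GC slope, 1 joint model and leaving out each library; removal of the GC slope with coefficients of the other regions was added after seeing the data.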

Additional observations from a re-analysis of the deposited data

Results flagged for a closer look

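In 48 groups of 6 libraries (8 genes, 6 groups), a library stood far from the other 5 in 6 cases by Dixon's criterion, which chance alone meets in about 1 of 20 groups. Pomc was 40.4 RPKM in NAc sham library 3, against 0.339 to 0.811 in the other 5, and 12.5 RPKM in PAG sham library 26, against 0.281 to 1.38. Penk was 25.1 RPKM in PFC SNI library 24, against 9.03 to 12.9, and 13.7 RPKM in PFC sham library 13, against 9.62 to 11.1. Oprm1 was 0.466 RPKM in PFC sham library 17, against 0.294 to 0.353. Oprl1 was 17.3 RPKM in NAc sham library 2, against 14.2 to 15.2. No difference of SNI effects between regions passed its test for an opioid gene, and no data lay outside the main measurement.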

How the results depend on the processing

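No paired analysis was possible because the groups compared share no replicate numbers. The call of Pnoc in PAG was lost when the GC slope entered the model or was removed. The slopes of SNI and sham libraries do not overlap there, so the fit with the slope as a covariate cannot tell the slope from surgery. The fit with coefficients of the other regions takes them to hold in PAG, which was not tested. With the slope as a covariate, 0 opioid genes and 0 of all genes were called (Pnoc 0.09). With coefficients of the other regions 0 and 20 were called (Pnoc 0.37), and with all libraries in 1 model 3337 genes. Under the other alternatives Pnoc in PAG stayed called, at 0.6 to 0.75 when 1 library was left out. Quantile scaling called 2 opioid genes (Pnoc and Oprk1, -0.15, adjusted p = 0.0309 by limma), as did array weights (Pnoc and Oprl1, -0.09, adjusted p = 0.0317) and leaving out PAG SNI library 33 (Oprl1, adjusted p = 0.0238); over the libraries left out, 1 to 2 opioid genes were called.

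In NAc, array weights called 2 genes and leaving out a library 0 to 3, the 3 without SNI library 7, none an opioid gene. Interaction calls were 1, 4 and 11 with no filter for NAc minus PFC, PAG minus NAc and PAG minus PFC, and 4 and 5 for the last 2 pairs with a pseudocount of 1. Array weights called 3712 genes for PAG minus PFC, with 2 opioid genes, Pnoc among them (0.7, adjusted p = 0.0112 by limma). Leaving out libraries gave 0 to 1 genes for PAG minus NAc and 0 to 1144 for PAG minus PFC with 0 to 1 opioid gene; the 1144 and Pnoc (0.81, adjusted p = 0.0419) came without PFC sham library 13. The causes were not tested.

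Of region differences, Oprm1 in NAc against PFC was 0.98 and Oprk1 in PFC against PAG -0.98 at a pseudocount of 1, just under the fold of 2. Pnoc in PFC against PAG passed it at a pseudocount of 0.1 (-1.08), between SNI groups (-1.67) and without PFC sham 18 (-1.01) or PAG sham 28 (-1.03), and in NAc against PFC at 0.1 (-1.1).

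Uncalled changes turned sign as follows. With the GC covariate they were -0.01 for Penk and -0.01 for Pnoc in NAc, and 0.09 for Oprk1, 0.01 for Oprl1 and 0.2 for Penk in PAG. With coefficients of the other regions they were -0.13 for Pnoc in NAc, and 0.01 for Oprd1 and 0.02 for Oprl1 in PAG. With array weights Oprd1 in PAG was 0.02 and Oprl1 in NAc against PFC 0.05, and between SNI groups Oprm1 in NAc against PAG was 0.09. Leaving out 1 library gave -0.02 to 0.14 for Penk, -0.08 to 0.12 for Pnoc and -1.07 to 0.05 for Pomc in NAc, -0.03 to 0.26 for Penk and -0.13 to 0.08 for Pnoc in PFC, and -0.06 to 0.02 for Oprd1 and -0.76 to 0.05 for Pomc in PAG. It gave -0.05 to 0.02 for Oprl1 and -0.45 to 0.77 for Pomc in NAc against PFC, -0.57 to 0.92 for Pomc in NAc against PAG, -0.47 to 0.48 for Pomc in PFC against PAG, and -0.04 to 0.17 for the Pnoc interaction of NAc minus PFC. Depth limits Oprm1 in PFC, at 108 to 224 reads a library, Pnoc in NAc, at 46 to 198, and Pomc, at as few as 4 reads.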
